A study of Mus musculus with 168 samples.

Results

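The comparison is of messenger RNA in the cortex of 6-month-old mice that carried the Q111 or the Q20 allele of the Huntington's disease gene Htt. Libraries were taken by their sample titles, which gave 8 Q111 and 8 Q20 libraries, 16 of the 56 libraries of that age and of the 168 in the series. Both groups were C57BL/6 mice heterozygous for a knocked-in Htt allele, with 4 females and 4 males each, and they carried an unmodified copy beside it. The names Q111 and Q20 give nominal CAG repeat lengths of 111 and 20. Q111 mice were housed with Q111 mice and Q20 mice with Q20 mice, and effects of housing and of the allele therefore cannot be told apart. The labels do not say that each library came from a different mouse, and p-values measure the spread between these libraries.

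Huntingtin is a large scaffold protein that takes part in vesicle transport along microtubules and in transcription. Its first exon holds a run of CAG codons, which is translated into a polyglutamine stretch near the start of the protein. Expansion of the run causes Huntington's disease, in which projection neurons of the striatum are lost early and the cortex, which sends axons to the striatum, is affected as well. In knock-in mice the repeat is placed in the mouse's own gene, so that the altered protein is made where and when huntingtin normally is.

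The coding part of Htt exon 1 holds the run after whose nominal length the alleles are named. It lies at chr5:34761907-34762109 on the forward strand of GRCm38, in an exon that spans positions 34761744 to 34762109. The sequence is that of transcript Htt-201 in GENCODE M21, the mouse reference. The knocked-in exons were not read here. Capitals mark the glutamine codons, which are codons 18 to 24 of the protein.

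Htt exon 1, coding bases: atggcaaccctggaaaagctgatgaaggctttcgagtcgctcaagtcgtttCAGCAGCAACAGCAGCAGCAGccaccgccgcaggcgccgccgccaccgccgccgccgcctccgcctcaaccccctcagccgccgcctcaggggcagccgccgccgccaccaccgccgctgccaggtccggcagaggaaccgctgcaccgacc

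The reference run held 7 glutamine codons, of which 6 were CAG and 1 was CAA, so that even the Q20 allele is nominally longer than the unmodified mouse gene. The codons after the run encode mostly prolines.

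Libraries held between 33942389 and 44394102 estimated counts in the Q111 group and between 33835842 and 41814158 in the Q20 group. Levels below are CPM, which are counts relative to the scaled library total, and differences are Q111 minus Q20 on the log2 scale with the standard error of the fit. Some libraries stood apart from their group. Transcripts of choroid plexus, the epithelium that secretes cerebrospinal fluid, summed to 1655 CPM in Q20 female 2 and 1441 CPM in Q20 male 2, against 212 to 244 CPM in the other 14 libraries. In Q111 male 2 the Y-linked gene Kdm5d stood at 52.6 CPM, against 29.2 to 30.7 CPM in the other Q111 males, and Ddx3y stood at 118 CPM against 52.4 to 63.4 CPM. The differences of Kdm5d were 0.41 with all libraries and 0.15 without Q111 male 2. Leading numbers in the library names run from 23353 to 23535 in Q111 and from 28217 to 28399 in Q20. What these numbers stand for is not given, and whatever they mark cannot be told apart from the allele.

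Htt itself was at almost the same level in both groups. In Q20 libraries it ran from 191 CPM through a median of 215 CPM to 222 CPM. In Q111 libraries it ran from 196 CPM through a median of 208 CPM to 227 CPM. The groups overlapped over nearly their whole ranges. The difference was -0.003 ± 0.04, with a 95% interval from -0.08 to 0.07 and an adjusted p of 0.995 (edgeR quasi-likelihood test, Benjamini-Hochberg). Leaving out single libraries moved the estimate between -0.02 and 0.01, so the sign was not stable. Counts do not separate the knocked-in from the unmodified copy, and the check therefore concerns the sum of both.

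No gene differed between Q111 and Q20 cortex at 6 months at an adjusted p under 0.05. Of 17611 genes tested, 0 were called (0%) by edgeR's quasi-likelihood test with Benjamini-Hochberg adjustment, and the lowest adjusted p was 0.22. At an unadjusted p under 0.05 there were 1368 genes (7.77%), of which 667 were higher (3.79%) and the rest lower (3.98%) in Q111. DESeq2 called 4 genes (0.0227%), namely Ttr, Man2c1, Mdh1 and Atp1b1. Without Q20 female 2 and Q20 male 2, edgeR called 0 of 17733 genes (0%), with 1301 at an unadjusted p under 0.05 (7.34%). Without Q111 male 2 it called 4 genes (0.0226%), namely Man2c1, Ywhab, Mdh1 and Pfas, each with an adjusted p of 0.046. Leaving out any other single library gave 0 calls.

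The spread between libraries was small, which sets how large a difference could have been missed. The biological coefficient of variation over the 6-month libraries was 0.069. The 95% interval of the difference lay within 1.2-fold in either direction for 12402 genes (70.4%), within 1.5-fold for 15694 (89.1%) and within 2-fold for 16999 (96.5%). For the 8046 genes between 10 and 100 CPM, intervals within 1.2-fold held for 96.6%. Below 1 CPM this was so for 6 of 2935 genes, and differences there were not detectable at this depth unless large. Only 92 genes had an estimate past 2-fold, and their median level was 0.227 CPM.

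**Figure D1:**
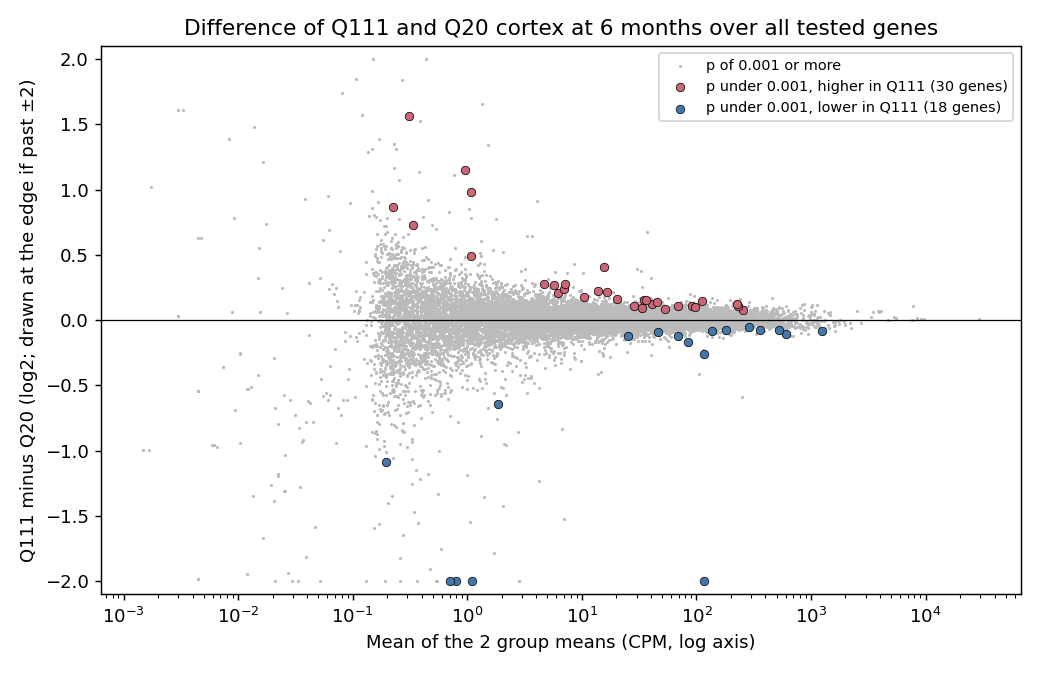
Difference of Q111 and Q20 (log2, vertical) against the mean of both group means (CPM, log axis) for 17611 tested genes, with the 48 genes of unadjusted p under 0.001 in colour. The 30 coloured genes higher and 18 lower in Q111 lie close to 0 above 10 CPM, except for Ttr and, less so, Kdm5d. Coloured points at the lower edge are Ttr, Slc4a5, Cldn2 and Tmem72, which choroid plexus expresses.

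Because no gene passed, the genes described in the next paragraphs were picked for a small unadjusted p, or as members of a gene list, after their values were seen. Their differences are descriptions, and none has an adjusted p under 0.05 in edgeR's test of Q111 against Q20 over all 56 libraries of 6 months.

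Among the genes that were higher in Q111, the smallest p belonged to Man2c1, a cytosolic alpha-mannosidase. It ran from 86.5 through a median of 88.0 to 92.4 CPM in Q20 and from 91.3 through 96.0 to 98.5 CPM in Q111, a difference of 0.11 ± 0.02 (adjusted p = 0.216). The Man2c1 ranges overlapped slightly, and 7 of 8 Q111 libraries lay above the highest Q20 library. Pfas, an enzyme of purine synthesis, ran from 37.9 through 39.2 to 40.6 CPM in Q20. It ran from 41.1 through 42.4 to 45.0 CPM in Q111, with no overlap and a difference of 0.13 ± 0.03 (adjusted p = 0.216). Foxo4, a forkhead transcription factor, ran from 16.8 through 19.3 to 20.0 CPM in Q20 and from 20.0 through 21.5 to 22.3 CPM in Q111, a difference of 0.16 ± 0.04. Rfx1, a transcription factor of the regulatory factor X family, had a difference of 0.15 ± 0.04, and Smc2, a core subunit of the condensin complex that compacts chromosomes, 0.18 ± 0.05. Pcdhb3, a cell adhesion protein of the beta protocadherin cluster, had a difference of 0.24 ± 0.06. Slc25a27, a carrier of the inner mitochondrial membrane, stood at a median of 51.5 CPM in Q20 and 55.1 CPM in Q111, a difference of 0.08 ± 0.02. For Rfx1, Smc2, Foxo4, Pfas, Drc1, Slc25a27 and Man2c1 all 8 Q111 libraries lay above the Q20 median. Over all genes, the 8 libraries of each group did not overlap for 6 (0.0341%), 5 higher (0.0284%) and 1 lower (0.00568%) in Q111. The 5 were Pfas, Drc1, Foxo4, Ccdc88c and Chd2.

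Genes with small p-values that were lower in Q111 had varied functions. Mdh1, the cytosolic malate dehydrogenase, ran from 601 through 630 to 666 CPM in Q20 and from 563 through 581 to 619 CPM in Q111, a difference of -0.10 ± 0.02 (adjusted p = 0.323). All but 1 of the 8 Q111 libraries lay below the lowest Q20 library for Mdh1. Atp1b1, a beta subunit of the sodium-potassium pump, ran from 1256 through 1282 to 1380 CPM in Q20 and from 1149 through 1226 to 1300 CPM in Q111. Its difference was -0.09 ± 0.02, and again 7 of 8 Q111 libraries lay below every Q20 library. March5, a ubiquitin ligase of the outer mitochondrial membrane, had a difference of -0.09 ± 0.02. Hspa9, a mitochondrial chaperone, had -0.08 ± 0.02. Ywhab, a 14-3-3 adaptor protein, ran from 523 to 561 CPM in Q20 and from 503 to 555 CPM in Q111, where only Q111 male 2 exceeded 512 CPM. Il33, a nuclear cytokine of glia, ran from 53.03 through 56.7 to 60.9 CPM in Q20 and from 46.2 through 51.4 to 56.5 CPM in Q111, a difference of -0.15 ± 0.04. No Q111 library reached the Q20 median of Il33. The gene whose Q111 libraries all lay below the Q20 libraries was Ptprv, a receptor-type tyrosine phosphatase. It ran from 4.41 through 4.77 to 6.13 CPM in Q20 and from 2.96 through 3.36 to 4.40 CPM in Q111, a difference of -0.52 ± 0.16 (adjusted p = 0.360).

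**Figure D2:**
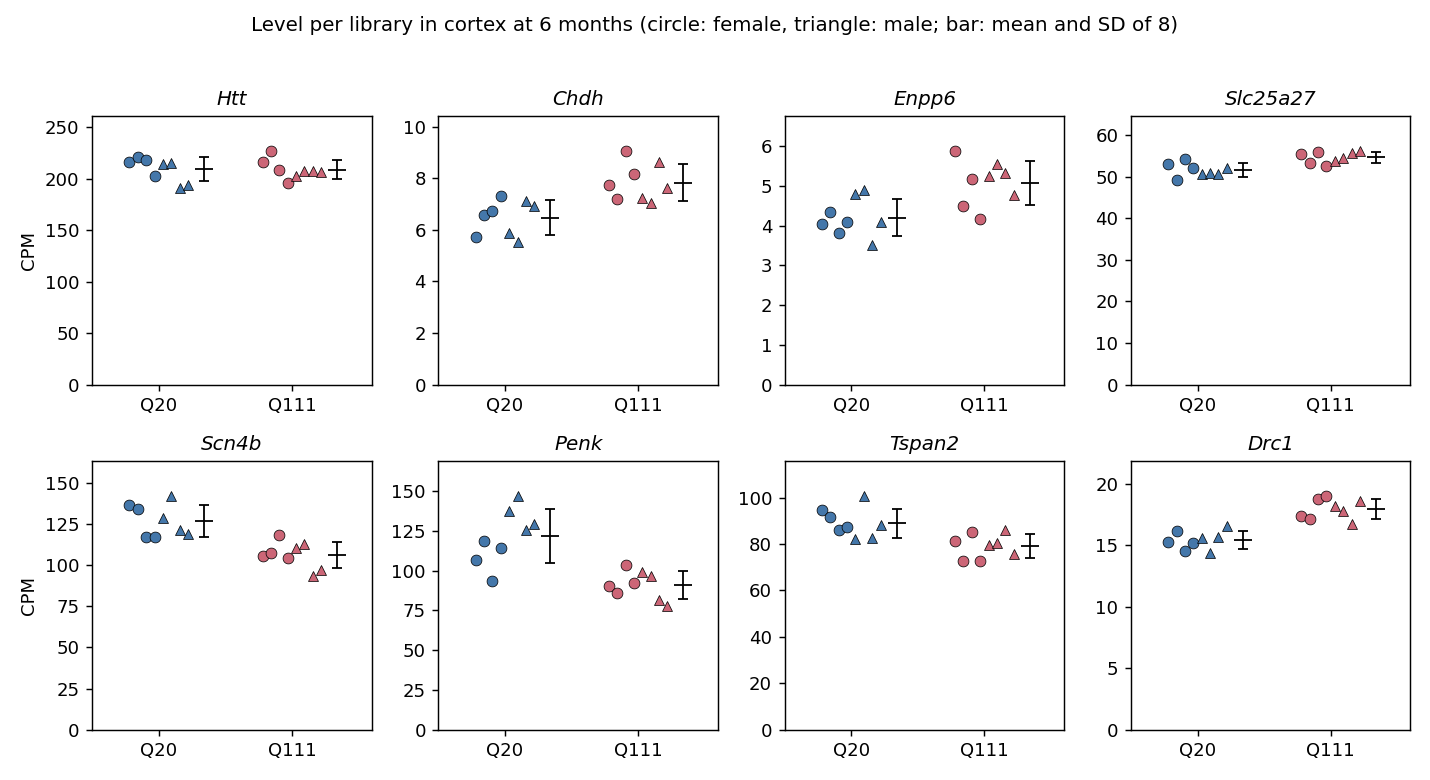
Level (CPM, each panel from 0) of 8 genes in each library of Q20 and Q111 at 6 months, with females as circles, males as triangles, and the mean and SD of 8 libraries as a bar. Htt overlaps throughout at about 191 to 227 CPM, Drc1 is separated between 16.6 and 16.7 CPM, and the other 6 genes overlap in part.

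Of 41 gene lists of cell types and pathways, 842 genes were tested, and 0 members were called in either direction (0%) by edgeR, with DESeq2 calling 1 (Ttr). Over all tested genes the median difference was 0.0007 and 50.5% were above 0, which is the level to set each list against. Members of a list share cells and pathways and are not independent.

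Markers of striatal projection neurons, the neurons most affected in Huntington's disease, were mostly lower in Q111 cortex, and so were markers of some other regions outside the cortex. Of 22 tested members 20 had a difference below 0 and the median was -0.115. At an unadjusted p under 0.05, 4 were lower, against 3.98% of all genes. Without the Q20 libraries rich in choroid plexus RNA, 18 of 22 were below 0 and the median was -0.08. Scn4b, a beta subunit of voltage-gated sodium channels, ran from 117 through 125 to 142 CPM in Q20 and from 93.4 through 106.5 to 118 CPM in Q111. The Scn4b groups met only at their edges, with a difference of -0.26 ± 0.07 (adjusted p = 0.328). Penk, which encodes the enkephalin precursor, ran from 93.7 through 122 to 147 CPM in Q20 and from 77.7 through 91.1 to 103 CPM in Q111, a difference of -0.42 ± 0.13. No Q111 library reached the Q20 median of Penk. Adora2a, the adenosine receptor of indirect-pathway neurons, had a median of 15.9 CPM in Q20 and 12.4 CPM in Q111 and a difference of -0.40 ± 0.19. Ido1, a tryptophan-degrading enzyme, lay under 1 CPM in every library and had a difference of -0.56 ± 0.21. The defining receptors Drd1 and Drd2 had differences of -0.12 ± 0.12 and -0.34 ± 0.23, and Ppp1r1b, the dopamine-regulated phosphatase inhibitor, had -0.13 ± 0.10. Tac1, which encodes substance P, stood at -0.01 ± 0.14. In bulk tissue, fewer cells of a type and less RNA per cell cannot be told apart. The summed level of the list ran from 1779 to 2070 CPM in Q20 and from 1744 to 1952 CPM in Q111, and its part in the differences of Scn4b and Penk was not tested. Beside these, markers of hypothalamus and other subcortical regions had 13 of 15 members below 0 with a median of -0.21, and summed to 87.0 to 125 CPM in Q20 and 86.8 to 114 CPM in Q111. Meningeal and fibroblast markers had 16 of 17 below 0 with a median of -0.08, olfactory and basal forebrain markers 8 of 14 with a median of -0.07, and thalamic markers 6 of 12 with a median of -0.001. The part of tissue from other regions in the striatal differences was not tested. Of the broader list of cAMP, calcium and opioid signalling, 21 of 32 members were below 0 with a median of -0.01. Members of that list outside the striatal markers included Adcy1, a calcium-stimulated adenylyl cyclase, at 0.11 ± 0.05 and Rgs4, a regulator of G protein signalling, at -0.11 ± 0.04.

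Cortical neuron markers had medians near 0. Upper-layer markers had 8 of 14 below 0 and a median of -0.0081, deep-layer markers 7 of 14 and 0.0045, and excitatory neuron markers 5 of 13 and 0.0092. Cux2, a homeobox gene of upper layers, had a difference of 0.11 ± 0.05. Interneuron markers had 22 of 26 below 0 with a median of -0.04, with Vip, a peptide of 1 interneuron class, at -0.11 ± 0.06. Over the channel and receptor lists, the medians of GABA receptor, glutamate receptor, potassium channel and calcium channel genes lay between -0.03 and 0.03.

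Genes of the respiratory chain that are encoded in the nucleus were lower in Q111 by a few percent. Of 37 tested members 34 were below 0, the median was -0.04, and 14 had an unadjusted p under 0.05, all of them lower, against 3.98% of all genes. The list had no member above 0 without the Q20 libraries rich in choroid plexus RNA, and 4 above 0 without Q111 male 2. Uqcrc2, a core subunit of complex III, ran from 167 through 174 to 182 CPM in Q20 and from 160 through 165 to 173 CPM in Q111, a difference of -0.07 ± 0.02 (adjusted p = 0.408). No Q111 library reached the Q20 median of Uqcrc2. Ndufa4, a subunit linked to cytochrome oxidase, had a difference of -0.08 ± 0.03 and Sdhd, an anchor subunit of complex II, -0.06 ± 0.02. The 13 transcripts of the mitochondrial genome had 11 members above 0 and a median of 0.01. Heat shock genes had 21 of 27 below 0 with a median of -0.04, and Hsp90aa1, the inducible cytosolic HSP90, ran from 792 through 846 to 916 CPM in Q20 and from 756 through 787 to 869 CPM in Q111.

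Oligodendrocyte genes had differences of both signs. Markers of mature oligodendrocytes had 12 above and 15 below 0, with a median of -0.003. At an unadjusted p under 0.05, 2 were higher and 5 lower, against 3.79% and 3.98% of all genes. Tspan2, a tetraspanin of myelinating cells, ran from 82.1 through 87.7 to 101 CPM in Q20 and from 72.5 through 80.0 to 86.1 CPM in Q111, a difference of -0.17 ± 0.05. No Q111 library reached the Q20 median of Tspan2, and without the Q20 libraries rich in choroid plexus RNA its difference was -0.13. Qdpr, a biopterin-recycling enzyme whose gene lies 10.67 Mb after Htt on chromosome 5, had -0.10 ± 0.04. The part of that position in the Qdpr difference was not tested. Anln, an actin-binding protein, went the other way, from a median of 29.9 CPM in Q20 to 37.5 CPM in Q111 with a difference of 0.25 ± 0.07, although its lowest Q111 library at 26.1 CPM was below every Q20 library. Plxnb3, a semaphorin receptor, had 0.11 ± 0.05. Among 18 markers of newly forming oligodendrocytes and their precursors 13 were above 0, with a median of 0.03. Their leading member was Enpp6, a choline-specific phosphodiesterase, which ran from 3.53 through 4.10 to 4.90 CPM in Q20 and from 4.17 through 5.22 to 5.88 CPM in Q111, a difference of 0.27 ± 0.08 (adjusted p = 0.328). All 8 Q111 libraries lay above the Q20 median of Enpp6. Chdh, which oxidises choline in mitochondria, ran from 5.52 through 6.65 to 7.31 CPM in Q20 and from 7.04 through 7.66 to 9.05 CPM in Q111, a difference of 0.27 ± 0.07. All 8 Q111 libraries lay above the Q20 median of Chdh as well. Abca8a, a lipid transporter, had 0.23 ± 0.06, and the list of fatty acid and choline metabolism that holds Chdh, Enpp6 and Abca8a had 13 of 26 members on each side of 0.

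Cholesterol synthesis genes had 21 of 25 members below 0 and a median of -0.05. At an unadjusted p under 0.05, 6 members were lower, against 3.98% of all genes. Without the Q20 libraries rich in choroid plexus RNA these were 3. Fdft1, the squalene synthase, ran from 84.9 through 90.2 to 98.0 CPM in Q20 and from 77.3 through 85.4 to 91.3 CPM in Q111, a difference of -0.10 ± 0.04. Acat2, a thiolase of the first step, had -0.11 ± 0.04 and Insig1, a sterol sensor that holds the pathway back, -0.17 ± 0.08. The Insig1 gene lies 6.69 Mb before Htt on chromosome 5, in a stretch described below. The part of that position in its difference was not tested.

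Microglia markers were mostly higher in Q111. Of 23 tested members 20 were above 0, the median was 0.06, and 6 had an unadjusted p under 0.05, all higher, against 3.79% of all genes. Cx3cr1, the fractalkine receptor, ran from 40.2 through 42.3 to 45.1 CPM in Q20 and from 42.6 through 47.3 to 51.5 CPM in Q111, a difference of 0.14 ± 0.04 (adjusted p = 0.328). All 8 Q111 libraries lay above the Q20 median of Cx3cr1. Itgam, an integrin of myeloid cells, had 0.14 ± 0.05 and Csf1r, the receptor for the growth factor that microglia depend on, 0.10 ± 0.03. The summed list ran from 657 to 731 CPM in Q20 and from 702.3 to 769.6 CPM in Q111, which overlap. Without the Q20 libraries rich in choroid plexus RNA, 18 of 23 members were above 0 and the median was 0.03. In that fit 4 members were higher at an unadjusted p under 0.05, against 649 of 17733 genes. Genes of reactive glia had 18 of 25 below 0 with a median of -0.07, and interferon-stimulated and antigen presentation genes 19 of 29 below 0 with a median of -0.05. Astrocyte markers had 12 of 20 above 0 and a median of 0.007, with Acsbg1, an acyl-CoA synthetase, at 0.09 ± 0.03. Members of the beta protocadherin cluster had 17 of 21 above 0 and a median of 0.05.

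The differences of choroid plexus markers rested on a pair of libraries. All 14 tested members were below 0 with a median of -1.83, and all had an unadjusted p under 0.05, against 3.98% of all genes. Ttr, the carrier of thyroid hormone secreted by this epithelium, stood at 912 CPM in Q20 female 2 and 758 CPM in Q20 male 2, and at 6.66 to 24.6 CPM in the other 14 libraries. Its difference was -4.19 ± 1.07 with all libraries and -0.22 without those, an unadjusted p of 0.826. Without them 9 of 14 markers were below 0, the median was -0.05 and 0 had an unadjusted p under 0.05 in edgeR's quasi-likelihood test, which called 0.

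**Figure D3:**
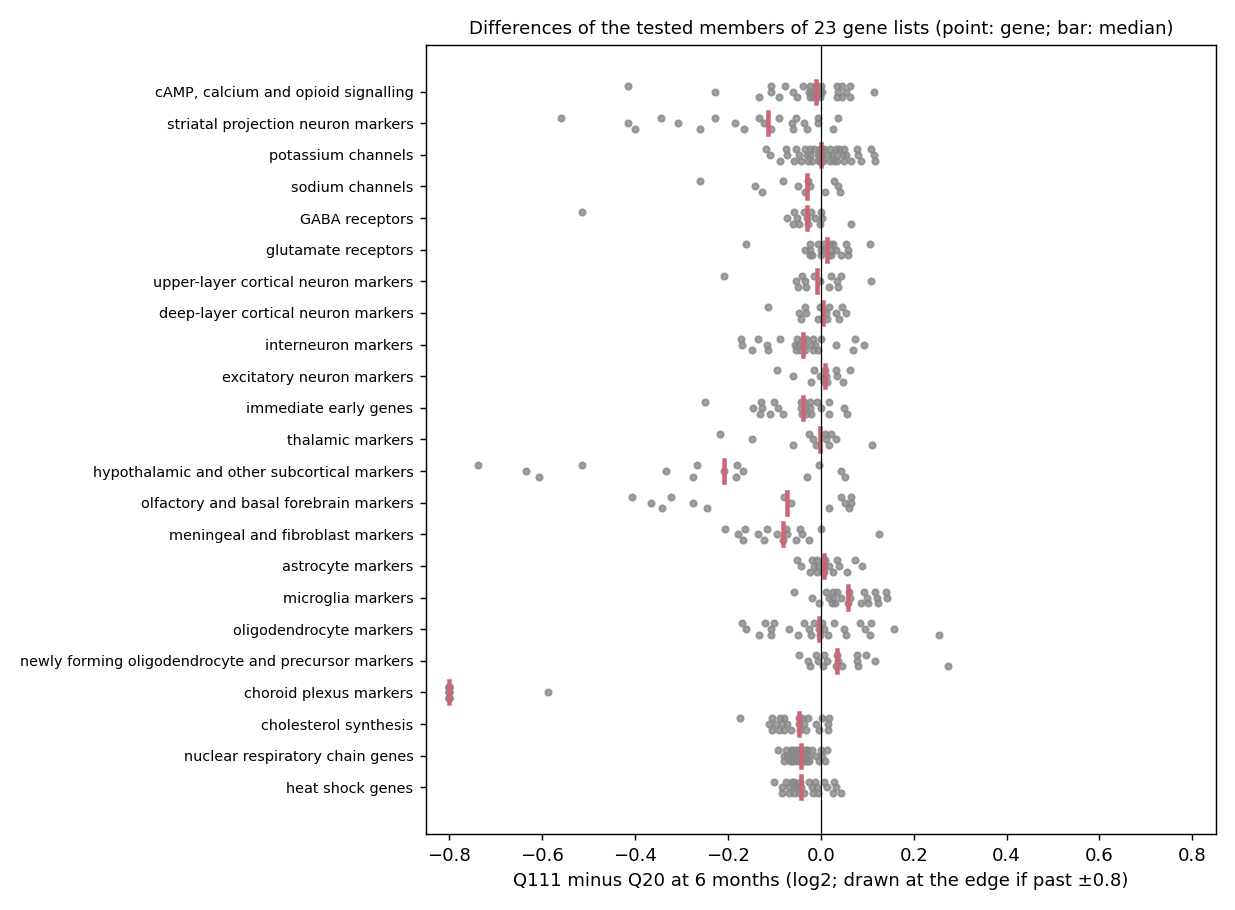
Difference of Q111 and Q20 at 6 months (log2, horizontal, values past 0.8 drawn at the edge) for each tested member of 23 of the 41 gene lists, with the list median as a red bar. Among those drawn, medians lie between -0.21 for hypothalamic and other subcortical markers and 0.06 for microglia markers, apart from the choroid plexus markers at the left edge. The lists were picked after their values were seen, and of those not drawn developmental transcription factors had a median of -0.14 and a further list of liver transcripts, which summed to at most 10.2 CPM, had -0.55.

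The sexes were compared within the 16 libraries. The difference between males and females in the Q111 minus Q20 contrast was called for 0 of 16657 genes (0%) by edgeR, with 500 at an unadjusted p under 0.05 (3%), and for 1 gene, Capn11, by DESeq2. Markers of the striatum and of some other regions outside the cortex had lower medians in males than in females. Other lists went the other way. Hippocampal markers had a median of 0.05 in males and -0.05 in females, and choroid plexus markers -1.44 and -1.63. In males 21 of 22 striatal markers were below 0 with a median of -0.24. Of these, 14 had an unadjusted p under 0.05 (2.06% of all genes in that direction). In females 11 of 22 were below 0 with a median of -0.002. For the difference between the sexes 20 of 22 were lower in males, 8 of them at an unadjusted p under 0.05 (1.66% of all genes), and 0 were called. Olfactory and basal forebrain markers had 14 of 14 below 0 in males with a median of -0.36, and 4 of 14 in females with a median of 0.14. Markers of hypothalamus and other subcortical regions had 12 of 13 below 0 in males with a median of -0.36, and 7 of 13 in females with a median of -0.0052. For the difference between the sexes, 14 of 14 and 10 of 13 of these were lower in males, with 0 called, and their part in the striatal values was not tested. Penk ran from 126 to 147 CPM in Q20 males and from 77.7 to 98.9 CPM in Q111 males. In females Penk ran from 93.7 to 119 CPM in Q20 and from 86.0 to 103 CPM in Q111. The Penk differences were -0.61 ± 0.09 in males (adjusted p = 0.0592) and -0.22 ± 0.09 in females. Their own difference was -0.38 ± 0.13 (adjusted p = 1). The low adjusted p of Penk in males depended on the fit within the 16 libraries. A separate edgeR fit of males only called 0 of 17644 genes, and its lowest adjusted p for any gene was 0.54. Within the 16 libraries, Drd2 had -0.70 ± 0.22 in males and 0.04 ± 0.23 in females, and Adora2a had -0.67 ± 0.16 and -0.11 ± 0.16. The summed striatal markers ran from 2010 to 2070 CPM in Q20 males and from 1744 to 1952 CPM in Q111 males. In females the ranges were 1779 to 1986 CPM and 1749 to 1925 CPM. Respiratory chain genes were below 0 in both sexes, with medians of -0.05 in females and -0.04 in males. Scn4b had -0.22 ± 0.07 in females and -0.31 ± 0.07 in males, Enpp6 0.27 in both sexes, and Chdh 0.29 in females and 0.26 in males.

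The same alleles were measured at 2 and 10 months in other libraries. At 2 months edgeR called 0 of 17194 genes (0%), with 447 at an unadjusted p under 0.05 (2.6%) and 3 called by DESeq2 (Drc1, Galnt11 and Gm5067). At 10 months it called 4 of 17219 genes (0.0232%), namely Car2, Fads1, Il33 and 6030443J06Rik, with 468 at an unadjusted p under 0.05 (2.72%). The contrast itself differed from 6 months for 0 genes at 2 months and 0 genes at 10 months (0%) in edgeR's test of the difference, and DESeq2 called none. At an unadjusted p under 0.05 there were 480 (2.78%) and 578 (3.35%) of 17254 genes. Il33 had 0.06 ± 0.05 at 2 months, -0.15 ± 0.04 at 6 months and -0.30 ± 0.06 at 10 months (adjusted p = 0.0273). Car2, the carbonic anhydrase of oligodendrocytes, had 0.04 ± 0.05, -0.10 ± 0.04 and -0.22 ± 0.04 (adjusted p = 0.0272). Fads1, a fatty acid desaturase, had -0.05 ± 0.03, -0.03 ± 0.02 and -0.15 ± 0.03 (adjusted p = 0.0273). Enpp6 had 0.00 ± 0.13, 0.27 ± 0.08 and 0.47 ± 0.12, and Chdh 0.10 ± 0.09, 0.27 ± 0.07 and 0.23 ± 0.09. Scn4b had the opposite sign at 2 months, with 0.11 ± 0.09, and the same sign but a smaller difference at 10 months, with -0.06 ± 0.07.

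The lists had other medians at 2 and 10 months. Striatal markers had 21 of 22 members above 0 at 2 months with a median of 0.115, and 12 of 22 above 0 at 10 months with a median of 0.008. The change from 2 to 6 months was negative for 21 of 22, 11 at an unadjusted p under 0.05 (1.38% of all genes). Respiratory chain genes had 14 of 37 below 0 at 2 months and 18 of 37 at 10 months, with medians of 0.01 and 0.0003. Microglia markers had 13 of 23 above 0 at 2 months and 10 of 23 at 10 months. Cholesterol synthesis genes had 19 of 25 below 0 at 2 months and 14 of 25 at 10 months. Mature oligodendrocyte markers had 21 of 27 below 0 at 10 months with a median of -0.08, and astrocyte markers 19 of 20 with a median of -0.11. Of the 30 genes that were higher at 6 months with an unadjusted p under 0.001, 29 were tested at the other ages. Among them 5 were higher at 2 months (17.2%, against 0.768% of all genes) and 8 at 10 months (27.6%, against 1.29%) at an unadjusted p under 0.05. The 5 were Drc1, Galnt11, Gm5067, 5031410I06Rik and 6030443J06Rik, all on chromosome 5 within 15 Mb of Htt, and the 8 were the same genes with Chdh, Enpp6 and Abca8a. Of the 18 that were lower at 6 months, 1 was lower at 2 months (Actr3b; 5.56%, against 1.83% of all genes) and 1 at 10 months (Tspan2; 5.56%, against 1.43%).

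Most genes with an unadjusted p under 0.05 in the same direction at every age lay on chromosome 5, on the upstream side of Htt. Between 15 and 5 Mb before the Htt start, 21 of 84 tested genes (25%) had an unadjusted p under 0.05 at 6 months. In the same window this was 20 of 83 (24.1%) at 2 months and 15 of 81 (18.5%) at 10 months. From 5 to 15 Mb after the Htt start, where few genes were tested, it was 3 of 23 (13%) at 6 months, 1 of 22 (4.55%) at 2 months and 4 of 22 (18.2%) at 10 months. Within 5 Mb on either side of Htt it was 10 of 120 (8.33%) at 6 months, close to the 7.77% of all genes, and 0 genes of the neighbourhood were called at that age by edgeR or DESeq2. Of 16942 genes tested at all 3 ages, 11 had an unadjusted p under 0.05 in 1 direction at each age, and 10 of these were among the 227 genes within 15 Mb of Htt. Averaged over the 3 ages, a comparison added after the values were seen, edgeR called 16 of 17254 genes (0.0927%), 11 higher (0.0638%) and 5 lower (0.029%) in Q111. DESeq2 called 27. Of the 16, 11 lay within 15 Mb of Htt, 10 of them in the window from 15 to 5 Mb before it.

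Drc1, a subunit of the dynein regulatory complex of motile cilia, lies at chr5:30281388-30366695, 4.48 Mb before Htt. It ran from 14.4 through 15.4 to 16.6 CPM in Q20 and from 16.7 through 18.0 to 18.99 CPM in Q111 at 6 months, without overlap, a difference of 0.22 ± 0.05. At 2 months the Drc1 difference was 0.27 ± 0.05 (adjusted p = 0.0595) and at 10 months 0.28 ± 0.06 (adjusted p = 0.0608). The mean over ages was 0.26 ± 0.03 (adjusted p = 3.84e-09). Galnt11, which starts O-linked glycosylation, lies at chr5:25221904-25265918 and had 0.16 ± 0.04 at 6 months and a mean over ages of 0.19 ± 0.02 (adjusted p = 1.67e-08). Klhl7, a substrate adaptor of a ubiquitin ligase, lies at chr5:24100605-24160792 and was lower, at -0.12 ± 0.04 and -0.14 ± 0.02 (adjusted p = 0.00027). Rint1, which takes part in transport between the endoplasmic reticulum and the Golgi, lies at chr5:23787711-23820369 and was lower as well, at -0.11 ± 0.05 and -0.14 ± 0.03 (adjusted p = 0.00462). The gene models Gm5067, Gm5862, Gm10471 and 5031410I06Rik lie between positions 26007027 and 26105362 and were all under 2 CPM, with differences from 1.07 to 1.56. Reads of such neighbouring models may be shared between copies, and their separate values are uncertain. The mean over ages was also called for 5 genes elsewhere, namely Chdh at 0.20 ± 0.04 (adjusted p = 0.0224), Car2, Fads1, Gm6410 and Gm16754.

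For Drc1, the Q80, Q92, Q140 and Q175 alleles stood at 0.26, 0.17, 0.24 and 0.21 against the same Q20 libraries, and wild type at -0.06. For Klhl7 the values were -0.11, -0.03, 0.04 and 0.04. Repeat length and the stretch of chromosome 5 that comes with an allele cannot be told apart in these data.

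**Figure D4:**
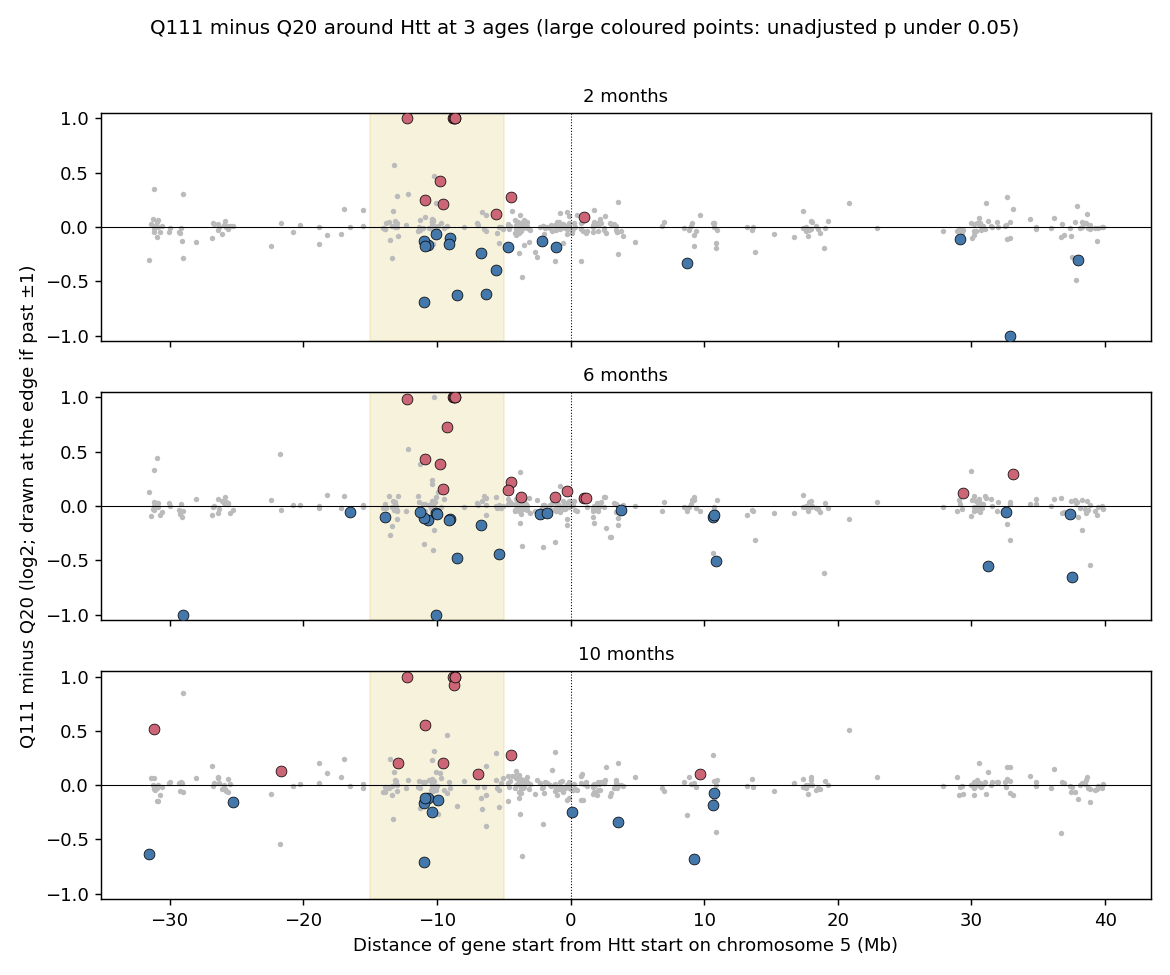
Difference of Q111 and Q20 (log2, vertical, values past 1 drawn at the edge) against the distance of a gene's start from that of Htt (Mb) at 2, 6 and 10 months, with genes of unadjusted p under 0.05 as large coloured points. The shaded window from 15 to 5 Mb before Htt holds 20, 21 and 15 such genes.

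The other alleles of 6 months were compared with the same Q20 cortex. These comparisons share the 8 Q20 libraries, and their values are set side by side without a count of agreement. At an adjusted p under 0.05, edgeR called 2 genes in Q80 (0.0114%), 170 in Q92 (0.965%), 0 in Q111, 404 in Q140 (2.29%) and 1691 in Q175 (9.6%). Liver transcripts summed to a median of 82.1 CPM in Q92 and 92.7 CPM in Q140, against 1.56 in Q20 and 1.31 in Q111. The part of liver transcripts in these counts was not tested. Chdh had differences from Q20 of 0.03 in Q80, 0.08 in Q92, 0.27 in Q111, 0.41 in Q140 and 0.57 in Q175. Enpp6 had 0.09, -0.05, 0.27, 0.48 and 0.67. Scn4b had 0.07, -0.03, -0.26, -0.38 and -0.70, and Penk 0.03, -0.23, -0.42, -0.53 and -0.67. Htt had 0.12, 0.12, -0.003, -0.17 and -0.43. Gabrd, a subunit of extrasynaptic GABA receptors, had -0.02, -0.07, -0.001, -0.17 and -0.32. Striatal markers had a median difference of 0.09 in Q80, -0.05 in Q92, -0.115 in Q111, -0.13 in Q140 and -0.30 in Q175, and microglia markers 0.002, -0.0004, 0.06, 0.06 and 0.13. Respiratory chain genes had -0.02, -0.03, -0.04, -0.05 and 0.02.

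**Figure D5:**
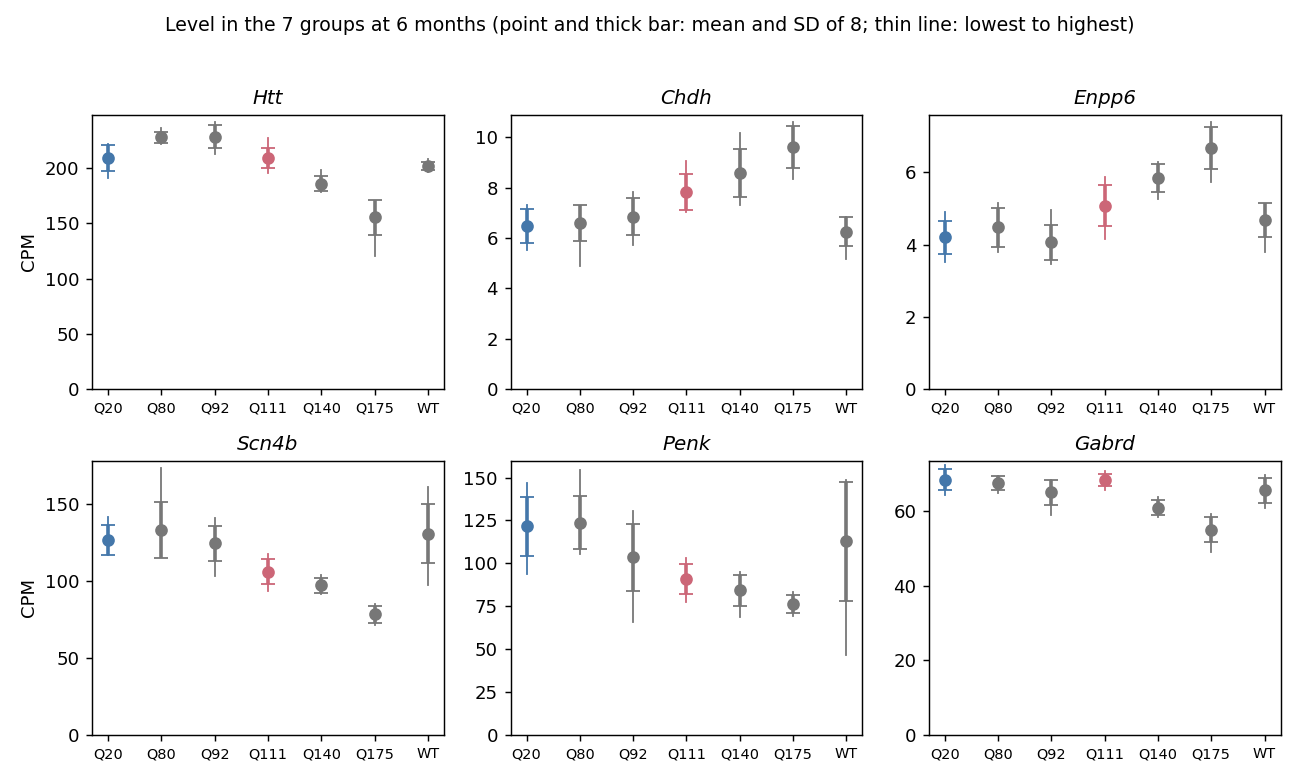
Level (CPM, each panel from 0) of 6 genes in the 7 groups of 6 months, with the mean and SD of 8 libraries as point and thick bar and the lowest to highest library as a thin line. Q111 (red) lies between the groups of shorter and longer alleles for Chdh and Scn4b, and at the level of Q20 (blue) for Htt and Gabrd.

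Genes called between 2 groups that do not include Q111 or Q20 were then read in Q111 against Q20. Genes that were higher in Q175 than in Q80 numbered 1219 (6.92%), and of these 850 (69.7%) were above 0 in Q111 against Q20, with a median of 0.02. Genes that were lower in Q175 than in Q80 numbered 1134 (6.44%), and of these 749 (66%) were below 0, with a median of -0.02. Over all genes 50.5% were above 0. These comparisons share no library but share the scaling and the estimate of spread. Against Q80, Q111 differed for 7 genes (0.0397%), among them Scn4b at -0.33 and Crhr1, a receptor for corticotropin-releasing hormone, at 0.18. Between Q175 and Q111, 1081 genes (6.14%) differed, and Htt had a difference of -0.43, Q175 minus Q111 (adjusted p = 8.78e-12).

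Q111 differed from the mean of Q80, Q92, Q140 and Q175 for 27 genes (0.153%), 13 higher (0.0738%) and 14 lower (0.0795%), and DESeq2 called 155. Plk5, a member of the polo-like kinase family, ran from 22.7 to 26.5 CPM in Q111 and from 13.4 to 16.8 CPM in Q175, with a difference from the mean of 0.34 ± 0.04 (adjusted p = 1.33e-06). Against Q20 the Plk5 difference was 0.10 ± 0.05 (adjusted p = 0.680). Gabrd had 0.14 ± 0.02 against the mean (adjusted p = 0.00248) and ran from 65.8 to 70.6 CPM in Q111, from 58.5 to 63.7 CPM in Q140 and from 48.9 to 59.3 CPM in Q175. Crhr1 had 0.15 ± 0.03, Adam33, a membrane metalloprotease, 0.27 ± 0.05, and Sall3, a zinc finger transcription factor, 0.33 ± 0.07. Lower in Q111 were Cd200, an inhibitory ligand of myeloid cells, at -0.12 ± 0.02, Stmn2, a microtubule regulator of neurons, at -0.09 ± 0.02, and Uqcrc2 at -0.08 ± 0.02. Also lower were transcripts of liver such as Apoa2 and Cps1, whose list summed to 24.7 to 133 CPM in Q92 and 31.8 to 493 CPM in Q140, against 1.01 to 7.86 CPM in Q111. The same transcripts bear on the neighbouring alleles. Q111 differed from Q92 for 668 genes (3.79%), of which 117 were past 4-fold and all of those higher in Q92. Q140 differed from Q111 for 217 genes (1.23%), of which 128 were past 4-fold and all of those higher in Q140. Their part in the calls was not tested. Htt had a difference of -0.17 ± 0.04, Q140 minus Q111 (adjusted p = 0.00526). Against wild type, 6294 genes (35.7%) differed, but the wild-type libraries carry another kind of library name, and the series of libraries and the genotype cannot be told apart.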

How the data were processed

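Libraries were made from polyA-selected RNA of flash-frozen cortex and sequenced on Illumina HiSeq instruments, per the labels' protocols. The authors deposited a table of estimated counts per Ensembl gene, in which 17.75% of values are not whole, and a table of FPKM values for the same genes. Per the submitters' processing notes, CASAVA 1.8.2 was among the tools. The aligner and genome build are not given in the sources read here. Gene names and positions come from GENCODE M21 (GRCm38), which matched 37693 of 39179 gene identifiers. Genes without a match held 0.258% of counts.

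Estimated counts were rounded, filtered by expression within genotype (minimum count 10, minimum total 15) and scaled by TMM. They were fitted with edgeR 4.0.16 (R 4.3.3) by its robust quasi-likelihood test over all 56 libraries of 6 months, with sex as a covariate. The Benjamini-Hochberg method was applied across every tested gene with a threshold of 0.05, and adjusted p-values in the text come from this model. Every pair of libraries within a group differed by more than sampling noise (chi-square per degree of freedom at least 4.57). The ages were fitted together for the mean and differences between ages, and the sexes within the 16 libraries. Alternatives used DESeq2 1.42.0, limma 3.58.1 on log2(FPKM + 1), other filters and omitted libraries. Scripts were tested on simulated data. The Htt gene, members of the lists that the text describes and genes with the smallest p-values are named. Because the planned rule names genes only from calls, most were picked after their values were seen. Gene lists and the comparison itself were chosen with earlier results of these data known.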

Additional observations from a re-analysis of the deposited data

Results flagged for a closer look

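In all, 7 values stood apart from the rest of their group by Dixon's criterion at the 95% level, of 128 groups of values tested, where chance gives about 1 in 20. In Q111 male 2, Kdm5d stood at 52.58 CPM against 29.24 to 30.68 CPM in the other Q111 males, and Ddx3y at 118.1 CPM against 52.38 to 63.4 CPM. The same library had Ywhab at 554.8 CPM against 502.7 to 511.7 CPM. In Q20 male 2, liver transcripts summed to 10.16 CPM against 1.29 to 1.857 CPM. Liver transcripts summed to 7.859 CPM in Q111 female 4 against 1.007 to 1.93 CPM. Abca8a was low in Q20 male 1, at 10.56 CPM against 12.46 to 13.26 CPM, and Itgam was high in Q20 female 3, at 32.28 CPM against 25.98 to 27.97 CPM.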

How the results depend on the processing

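The count of 0 genes between Q111 and Q20 at 6 months became 4 with DESeq2 and ran from 0 to 4 when single libraries were left out, with 4 only without Q111 male 2. The other alternatives, apart from the replicate block, gave 0. Among listed genes DESeq2 called 1 (Ttr). With the replicate number as a block, 7 genes were called, among them Ptprv and 1 listed gene (Scn4b, -0.26). The labels tie no number to a shared litter or day. Of 8 same-numbered pairs 4 correlated above 0.1 (range -0.0279 to 0.221), each best with its own number, and the numbers were not taken as pairs. The value of Htt in Q111 vs Q20 at 6 months changed sign in males (0.01378), with limma on log2(FPKM + 1) with (0.008087) and without a filter (0.008087), with a pseudocount of 0.1 (0.008558), without the Q20 libraries rich in choroid plexus RNA (0.01971), and between -0.01941 and 0.01256 when single libraries were left out. The value of Gabrd Q111 vs Q20 at 6 months changed sign in males (0.003126) and lay between -0.01438 and 0.01083 when single libraries were left out. The value of Fam126a Q111 vs Q20 at 6 months changed sign in females (0.03248). DESeq2 called 3 genes at 2 months, where its size factors in edgeR gave 1, 7 at 10 months, 1 for the sex difference, 27 for the mean of ages and 155 for Q111 against the other expanded alleles, where no filter gave 17. Of the other values for single genes, 1740 kept direction and side of the threshold and 10 passed it. Genes under 1 CPM had a median half-width of 0.46 (log2), and smaller differences there were not detectable.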
